A study of Mus musculus with 9 samples.

Results

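Collagen chain genes encode the polypeptides that assemble in threes, as homotrimers or heterotrimers, into the collagen triple helix. The set described here holds every counted gene whose symbol has the form Col, a type number, a and a chain number, with Col17a1 left out by the rule. It came to 43 genes of the 23282 entries counted per library, and 32 of the 43 passed the low-count filter, against 13740 entries in all. The filter asks for enough counts in about as many libraries as a group holds, so a gene can pass through the group in which it is high, and the 32 genes are not the whole set. RNA came from back skin of wild-type C57BL/6 mice and was read as 3′ tags (Lexogen QuantSeq). The 9 libraries cover 3 states, with 3 libraries each. The first is unstripped skin, whose labels name control cream, and the second is tape-stripped skin under control cream. In the remaining state, stripped skin was treated with graphene oxide of nanometre size (NGO), a sheet-like form of carbon, in a cream. Each mouse given NGO received 50 µg in 100 µL of cream, and skin was taken 24 h after treatment. Since the protocol speaks of cream for the stripped area, it is unclear whether unstripped skin was given any. Sex and age are not stated in the labels, and they do not say whether the libraries of a group are from different mice. The p-values therefore rest on the spread among these libraries, which may be technical.

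Collagens are the main structural proteins of the skin's extracellular matrix. Fibrillar chains (types I, II, III, V, XI, XXIV and XXVII) form the cross-banded fibres of the dermis and are made mostly by fibroblasts. Type IV forms the sheet-like network of basement membranes under epithelia and around vessels, muscle fibres, adipocytes and nerves, while type VII anchors the epidermal basement membrane to the dermis, and types XV and XVIII are basement membrane proteins that carry glycosaminoglycan chains. Type VI forms beaded microfibrils, FACIT chains (fibril-associated collagens with interrupted triple helices) sit on the surface of fibrils, types VIII and X are short-chain network formers, and types XIII, XXIII and XXV span the plasma membrane.

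Several of the genes lie next to each other in the genome, and 1 such pair includes the chain gene with the largest called rise, Col4a2. Col4a1 (minus strand, chr8:11198423-11312826) and Col4a2 (plus strand, chr8:11312805-11449287) are transcribed away from each other, and their annotated 5′ ends overlap by 22 bp (GENCODE M21, GRCm38, the mm10 build). Both rose after stripping. The start region that they share is shown first, as the RefSeq windows from 250 bases before to 50 bases after each gene's start (GRCm38.p6), at chr8:11312777-11313076 on the minus strand for Col4a1 and chr8:11312555-11312854 on the plus strand for Col4a2. Capitals mark the 78 bases that the windows have in common (chr8:11312777-11312854), which appear as the reverse complement of each other.
Col4a1: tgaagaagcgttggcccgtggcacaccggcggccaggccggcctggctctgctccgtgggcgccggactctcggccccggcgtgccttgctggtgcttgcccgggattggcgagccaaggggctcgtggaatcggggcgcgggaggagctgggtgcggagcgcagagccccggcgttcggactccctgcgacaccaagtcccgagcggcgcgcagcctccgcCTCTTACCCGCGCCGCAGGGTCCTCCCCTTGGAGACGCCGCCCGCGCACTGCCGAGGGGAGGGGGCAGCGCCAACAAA
Col4a2: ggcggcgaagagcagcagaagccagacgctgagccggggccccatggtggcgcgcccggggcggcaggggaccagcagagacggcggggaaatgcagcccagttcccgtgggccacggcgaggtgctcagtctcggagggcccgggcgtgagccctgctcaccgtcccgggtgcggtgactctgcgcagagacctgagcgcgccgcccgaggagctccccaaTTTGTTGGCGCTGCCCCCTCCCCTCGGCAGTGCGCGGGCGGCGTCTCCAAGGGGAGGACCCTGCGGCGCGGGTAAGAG
The next windows belong to a fibrillar chain that rose after stripping, Col1a2 (chr6:4505368-4505667, plus strand), and to the chain gene that fell, Col16a1 (chr4:130047590-130047889, plus strand). Capitals mark the CCAAT box, searched as CCAAT and as its reverse complement ATTGG.
Col1a2: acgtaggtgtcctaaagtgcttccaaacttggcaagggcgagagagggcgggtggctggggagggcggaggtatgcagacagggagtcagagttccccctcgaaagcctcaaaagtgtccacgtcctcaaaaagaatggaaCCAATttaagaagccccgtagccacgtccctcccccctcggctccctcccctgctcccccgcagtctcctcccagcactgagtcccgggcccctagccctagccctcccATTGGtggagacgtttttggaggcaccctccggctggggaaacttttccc
Col16a1: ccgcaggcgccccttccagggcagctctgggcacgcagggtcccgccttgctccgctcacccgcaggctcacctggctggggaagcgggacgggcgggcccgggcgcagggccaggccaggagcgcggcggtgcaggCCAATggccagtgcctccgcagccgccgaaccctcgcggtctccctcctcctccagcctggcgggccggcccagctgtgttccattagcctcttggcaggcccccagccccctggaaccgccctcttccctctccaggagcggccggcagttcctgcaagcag
The table of windows held 37 windows for 34 of the 43 genes. A CCAAT box was present in 12 of these 37 windows (32.4%) and in 37.4% of all 32851 windows. The GC box, GGGCGG on either strand, was present in 62.2% of the members' windows and in 35.7% of all windows, and TATAAA on either strand in 10.8% and 13.6%. The CCAAT box was thus present both in a window of a gene that rose and in that of the gene that fell. It was also present, unmarked above, in the windows of Col4a1 and Col4a2. The windows of Col3a1 and Col15a1, which rose as well, held none. These matches describe letters in a window and are not shown to be binding sites.

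Library totals ran from 2019739 to 6303322 counts. Rn45s, a ribosomal RNA precursor, took 13.2% to 16.0% of the counts in unstripped libraries. Its share was 22.1% to 25.1% in stripped control libraries and 9.35% to 21.0% in NGO libraries. Collagen transcripts made up 0.111% to 0.123% of the counts in unstripped libraries, 0.157% to 0.289% in stripped control libraries and 0.172% to 0.214% in NGO libraries. Levels are given below as CPM, the count scaled to a library of 1e+06 counts after TMM scaling (a trimmed mean of log ratios between libraries). They are 3′ tag counts that were not divided by gene length, so levels are compared between libraries and not between genes. The tissue label was checked against cell type markers: transcripts of basal keratinocytes and fibroblasts were present in every library. In addition, the summed level of 22 skeletal muscle markers ran from 249 to 1801 CPM in unstripped libraries, from 54277 to 151240.0 CPM in stripped control libraries and from 24707 to 59141 CPM in NGO libraries. All 22 markers were called higher in stripped control than in unstripped skin, where 5.97% of all tested genes were. Marker transcripts of other cell types are given beside the collagen results below, and their part in those results was not tested. In bulk skin, fewer cells of a type and less RNA per cell cannot be told apart.

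Summed over all 43 genes, collagen transcripts stood at 1111, 1062 and 964 CPM in the unstripped libraries, at 3018, 2393 and 2049 CPM in the stripped control libraries, and at 1559.5, 1941 and 1971 CPM in the NGO libraries. Every stripped library, with or without NGO, lay above every unstripped one. On this scale the NGO libraries also lay below all of the stripped control libraries. In shares of unscaled counts, Rn45s included, the NGO (0.172% to 0.214%) and stripped control groups (0.157% to 0.289%) overlapped. The order of NGO and stripped control libraries therefore depends on the scaling. The group means were 1045.5 ± 75.1, 2487 ± 491 and 1824 ± 229 CPM (SD, n = 3). No test was run on these sums. The gene tests below come from edgeR's quasi-likelihood fit over all 9 libraries, with p-values adjusted over all 13740 tested entries (Benjamini-Hochberg). A gene is called at an adjusted p under 0.05.

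**Figure D1:**
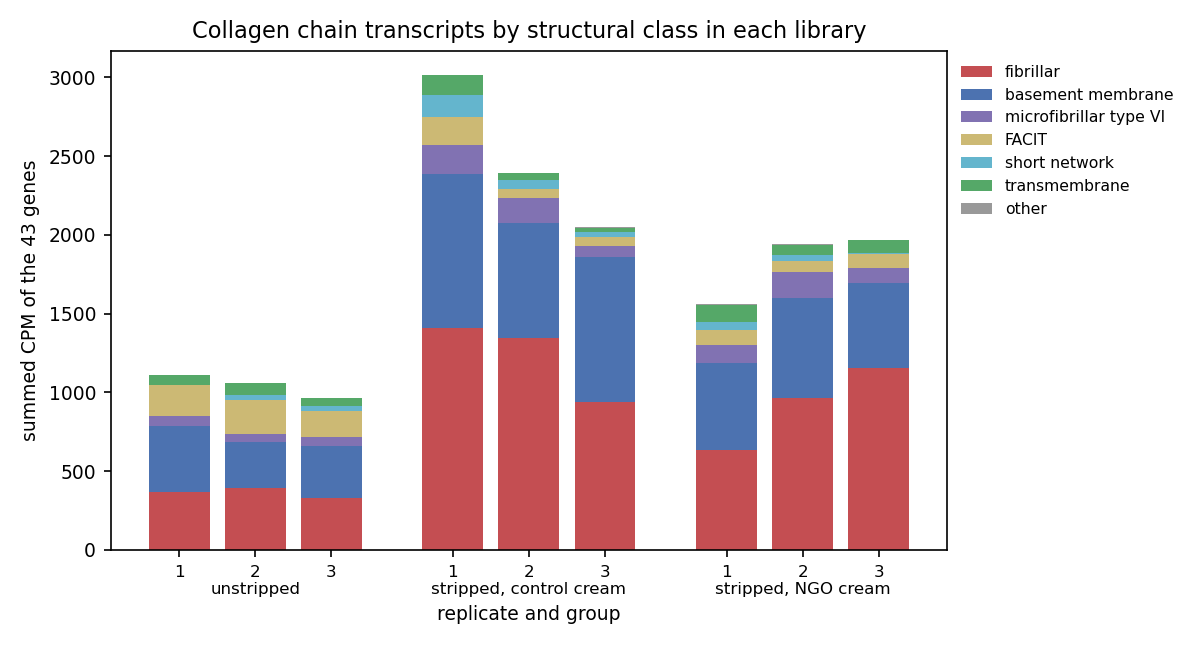
Summed CPM of the 43 collagen chain genes in each library (1 stacked bar per library, 3 libraries per group), split by structural class. Bars of the stripped control libraries reach 2049 to 3018 CPM and those of the unstripped libraries 964 to 1111 CPM, and the fibrillar and basement membrane classes fill most of each bar.

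The first comparison asks how collagen transcripts in stripped skin under control cream differed from those in unstripped skin. The type I and III chains Col1a1, Col1a2 and Col3a1, the type IV chains Col4a1 and Col4a2, and Col15a1 rose, by 3.24-fold to 11.7-fold, and Col16a1 fell. That is 6 higher and 1 lower among the 32 tested chain genes (21.9%), where 13.6% of all tested genes were called, 5.97% higher and 7.64% lower. The libraries of the 2 groups did not overlap for 17 of the 32 genes (53.1%), 14 of them higher and 3 lower in stripped skin, and this held for 38.5% of all tested genes. The median log2 fold change was 1.36 over the chain genes and -0.20 over all tested genes, and 26 of the 32 fold changes were positive.

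The second comparison asks how stripped skin under NGO cream differed from stripped skin under control cream, the contrast in the title of the series. Col4a1 fell and Col16a1 rose with NGO. These were the 2 calls among 32 genes (6.25%), where 5.05% of all tested genes were called, 3.87% higher and 1.18% lower, so the share was near that of all genes. The groups did not overlap for 9 of the 32 genes (28.1%), 2 higher and 7 lower with NGO, against 25.2% of all tested genes. The median log2 fold change of the chain genes was -0.53 against 0.07 for all tested genes, with 22 of the 32 negative. Neither call held throughout: Col4a1 held in 11 and Col16a1 in 9 of the 18 alternative analyses, and neither held when the fit was limited to the 2 groups compared.

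The last comparison sets NGO-treated stripped skin against unstripped skin. Col1a1, Col3a1, Col4a1, Col4a2 and Col15a1 were higher and no chain gene was called lower, with edgeR. That is 5 of 32 genes (15.6%), where 2.51% of all tested genes were called, 2.06% higher and 0.451% lower. Before adjustment, 9 chain genes had an unadjusted p under 0.05 in the higher direction and 1, Col16a1, in the lower, and DESeq2 and limma-voom each called Col16a1 lower. The groups did not overlap for 16 of the 32 genes, 11 higher and 5 lower, against 26.2% of all tested genes. The median log2 fold change was 0.81, against -0.07 for all tested genes. Of the 18 alternatives, Col4a2 held in all, Col15a1 in 16, Col3a1 in 15, Col4a1 in 12 and Col1a1 in 10, and the count was 1 without unstripped replicate 2 or 3. The first and second comparisons share the stripped control libraries, and the first and last share the unstripped libraries, so the fold changes of these comparisons are not independent of each other.

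**Figure D2:**
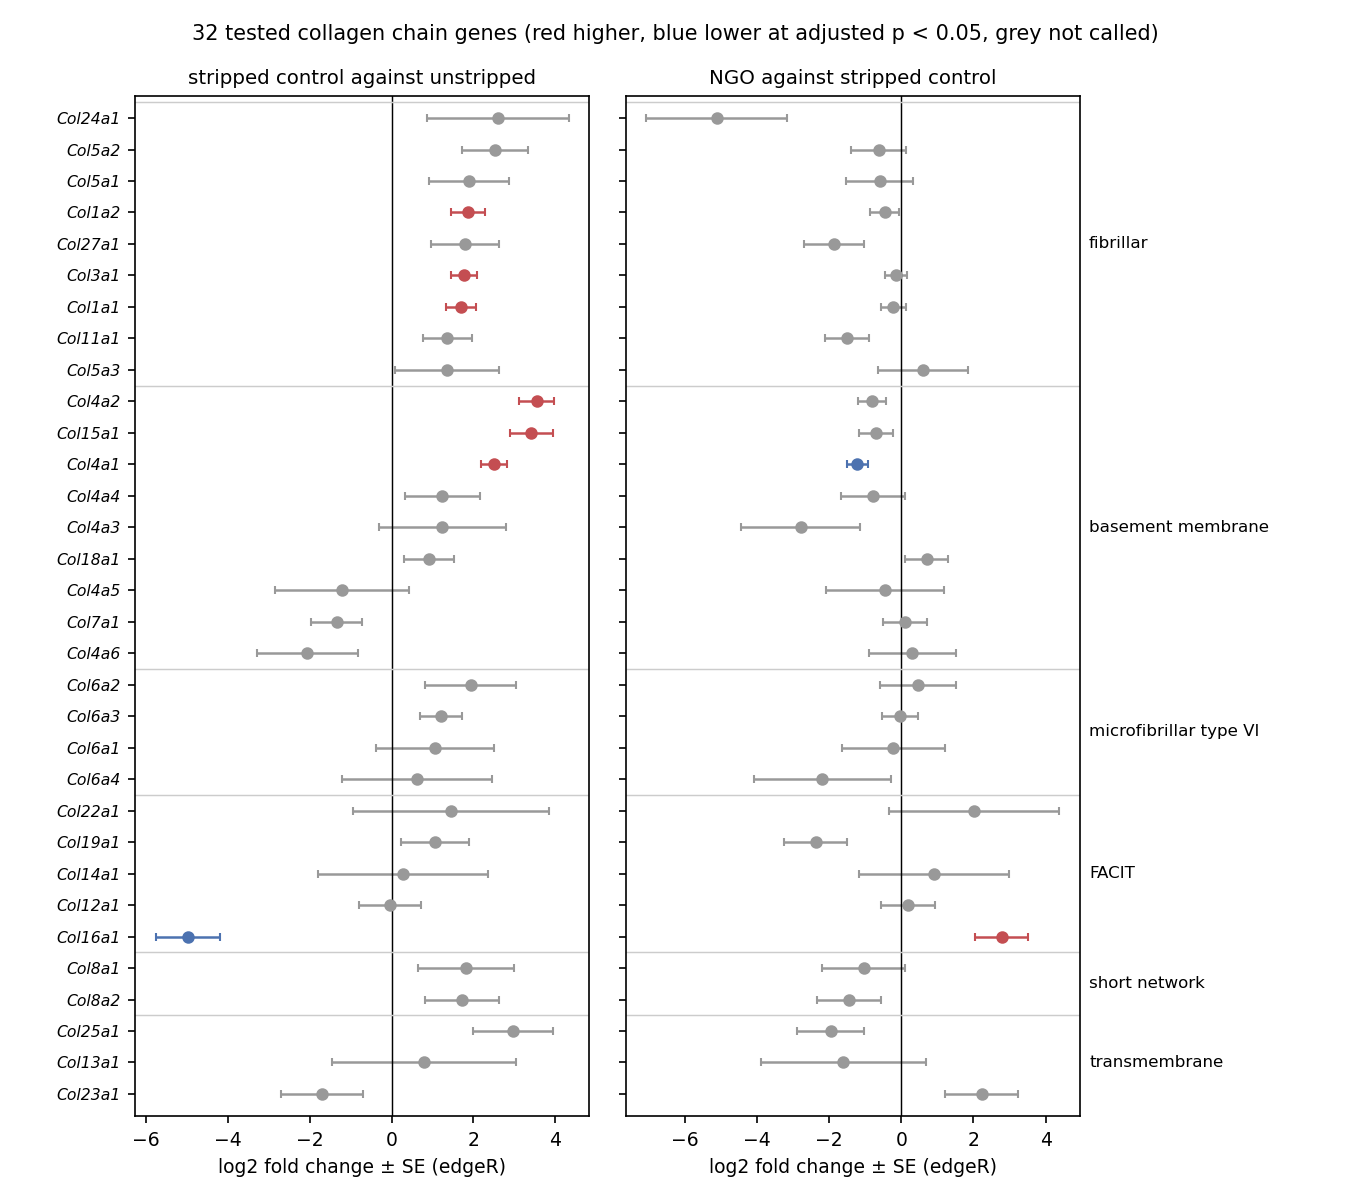
Log2 fold change with its SE from edgeR for the 32 tested collagen chain genes (1 row per gene). The panels show stripped control against unstripped skin and NGO against stripped control skin (1 panel each). Called genes are in red (higher) or blue (lower) and the others in grey. The stripping panel has 6 red and 1 blue point, and the panel of NGO against stripped control 1 of each. NGO against unstripped skin is not drawn.

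Of the fibrillar chains, 9 of 11 were tested, and 3 rose and none fell after stripping, where 5.97% of all tested genes rose and 7.64% fell. Their median log2 fold change was 1.80, and all 9 fold changes lay between 1.36 and 2.60. Col1a1 (chr11:94936224-94953042), the α1 chain of type I collagen, was at 148, 102 and 105 CPM in unstripped libraries, 442, 457 and 252 CPM in stripped control libraries and 245, 275 and 469.7 CPM in NGO libraries. All 6 stripped libraries were above the 3 unstripped ones, while the control and NGO libraries overlapped. Col1a1 rose by 1.70 ± 0.36 on the log2 scale after stripping (SE, edgeR adjusted p = 0.0061). With NGO it was 1.48 ± 0.35 above unstripped skin (edgeR adjusted p = 0.0427, up to 0.237 over the alternatives), and the difference from stripped control was -0.22 ± 0.35 (edgeR adjusted p = 0.783).

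Col1a2 (chr6:4504814-4541544) encodes the partner chain of Col1a1 in type I collagen. Its libraries stood at 81.2, 109.7 and 79.3 CPM in unstripped skin, at 301, 401 and 279 CPM after stripping, and at 95.1, 283 and 334 CPM with NGO. Stripped control libraries were all above the unstripped ones, and NGO replicate 1 lay inside the unstripped range. The rise after stripping was 1.86 ± 0.42 on the log2 scale (edgeR adjusted p = 0.00973). NGO against unstripped skin gave 1.40 ± 0.42 (edgeR adjusted p = 0.126), and without NGO replicate 1 the gene was called, at 1.77 (edgeR adjusted p = 0.0156).

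Col3a1 (chr1:45311538-45349706) encodes the single chain of type III collagen, which forms fine fibres in skin and vessel walls. Its level was 67.4, 83.7 and 74.6 CPM in unstripped libraries, 262, 270.4 and 236 CPM in stripped control libraries, and 164, 296 and 239 CPM with NGO. Every stripped library exceeded every unstripped one, and the control libraries fell inside the NGO range. The rise was 1.77 ± 0.32 on the log2 scale after stripping (edgeR adjusted p = 0.00192) and 1.63 ± 0.31 with NGO against unstripped skin (edgeR adjusted p = 0.011). NGO against stripped control differed by -0.14 ± 0.31 (edgeR adjusted p = 0.853).

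The minor fibrillar chains were not called in the reported edgeR analysis. Col5a2, a chain of type V collagen, which sits inside type I fibrils, came nearest. It was at 1.72, 5.90 and 13.3 CPM in unstripped libraries, 54.8, 32.2 and 35.0 CPM in stripped control libraries and 16.3, 29.8 and 32.4 CPM with NGO. Its groups did not overlap in the stripping comparison, and the log2 fold change was 2.53 ± 0.81 (edgeR adjusted p = 0.0535), and DESeq2 (adjusted p = 0.00388) and limma-voom (adjusted p = 0.0229) called it. So did edgeR with RLE scaling (adjusted p = 0.0434), upper-quartile scaling (0.0474), no low-count filter (0.0496) and the filter of 20 counts in 3 libraries (0.0479). Col5a1, the other main chain of type V, was at 4.82 to 6.19 CPM unstripped, 10.9 to 25.9 CPM stripped and 6.94 to 23.6 CPM with NGO. Col5a3 was at 0 in stripped control replicate 3 and at 40.9 CPM in replicate 2, so its stripped control values covered the whole range of the other groups.

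Col11a1, a type XI chain best known from cartilage, was at 47.8, 51.0 and 36.0 CPM in unstripped libraries, at 209, 64 and 74.5 CPM in stripped control libraries and at 73.7, 35.9 and 13.8 CPM with NGO. Stripped control replicate 1 stood well above the others. The log2 fold change was 1.36 ± 0.61 for stripping (edgeR adjusted p = 0.163) and -1.50 ± 0.61 for NGO against stripped control (edgeR adjusted p = 0.177). Col27a1 was at 5.85, 15.6 and 7.07 CPM in unstripped libraries, 27.4, 39.6 and 32.5 CPM in stripped control libraries and 6.04, 8.33 and 13.0 CPM with NGO. Col24a1 was at 1.38, 2.65 and 1.77 CPM in unstripped libraries, 16.6, 13.6 and 5.46 CPM in stripped control libraries and 0, 0.925 and 0 CPM with NGO. For both, stripped control libraries lay above all others. After stripping DESeq2 called Col27a1 higher (adjusted p = 0.0352), and edgeR called neither (adjusted p = 0.176 for Col27a1 and 0.375 for Col24a1). DESeq2 called both lower with NGO than in stripped control skin (adjusted p = 0.0445 for Col27a1 and 0.00711 for Col24a1). In that comparison limma-voom called no fibrillar chain and edgeR gave 3 with an unadjusted p under 0.05. The cartilage chains Col2a1 and Col11a2 were below the low-count filter. Col2a1 was nonetheless at 57.4 CPM in stripped control replicate 1 and 12.5 CPM in replicate 3, against at most 1.18 CPM in the unstripped libraries. With no low-count filter it was called lower with NGO than in stripped control skin (edgeR adjusted p = 0.0395). Of the 5 chondrocyte markers in the files, Hapln1 and Matn1 were at 0 in every library and Acan in all but 1, while Sox9, which other skin cells also express, was present in every library. The sum of these markers was 95.5 to 151 CPM in unstripped, 87.1 to 114 CPM in stripped control and 103 to 123 CPM in NGO libraries.

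**Figure D3:**
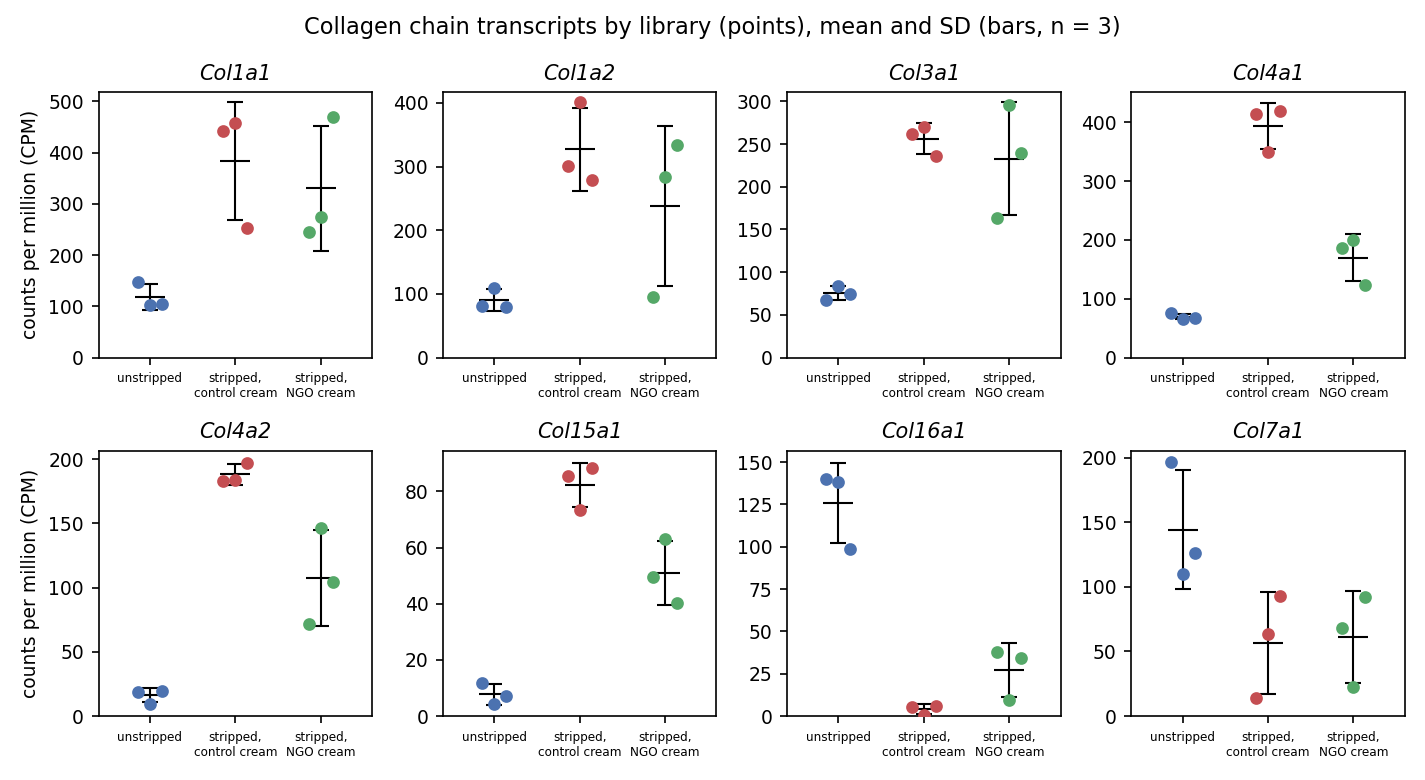
CPM of collagen chain genes in each library (points) with the mean and SD of the group (bars, n = 3), 1 panel per gene, linear axes from 0. Points for Col4a1 separate into 3 levels, 66.0 to 75.3 CPM unstripped, 349 to 419.6 CPM stripped and 124 to 199 CPM with NGO, and Col16a1 runs the other way.

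Summed over the class, fibrillar transcripts were at 365, 391 and 327 CPM in unstripped libraries, 1412, 1344 and 938 CPM in stripped control libraries and 636, 965 and 1157 CPM with NGO. They made up 34.5% ± 2.03 of collagen transcripts before stripping, 49.6% ± 5.73 after it and 49.8% ± 8.95 with NGO (SD, n = 3). Beside them, the summed level of 14 fibroblast markers other than collagens was 122 to 205 CPM in unstripped, 407 to 619 CPM in stripped control and 235 to 701 CPM in NGO libraries. Of these 14, 1, Dcn, was called higher after stripping, where 5.97% of all tested genes were, and the median log2 fold change of the list was 2.17. Without Dcn, again chosen after the values were seen, the sum was 103 to 173 CPM, 215 to 448 CPM and 141 to 317 CPM, and NGO replicate 1 lay inside the unstripped range. Dpp4 and Crabp1 were at 0 in stripped control libraries and no marker was at 0 throughout the other groups. The ratio of fibrillar transcripts to fibroblast marker transcripts, a measure chosen after the values were seen, was 2.99, 1.90 and 1.96 in unstripped libraries, 2.28, 3.30 and 2.17 in stripped control libraries and 2.71, 2.73 and 1.65 with NGO. The 3 groups overlapped in this ratio, which has Dcn among its markers. Dcn was at 19.3, 32.1 and 27.7 CPM in unstripped and 94.5, 138 and 385 CPM in NGO libraries. With Dcn left out of the markers, the NGO libraries lay above the unstripped ones in this ratio, and the stripped control libraries still overlapped both. Whether the groups separate in this ratio therefore depends on the markers chosen, and no test was run on it.

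All 9 basement membrane chain genes were tested, and they split. Col4a1, Col4a2 and Col15a1 rose after stripping and none was called lower, where 5.97% of all tested genes were called higher and 7.64% lower. Over the 9, log2 fold changes ran from -2.07 to 3.55 with a median of 1.24. Col4a1 was at 75.3, 66.0 and 67.8 CPM in unstripped libraries, 414, 349 and 419.6 CPM in stripped control libraries and 186, 199 and 124 CPM with NGO. The 3 groups were fully apart, with NGO between the others. Col4a1 rose by 2.50 ± 0.31 on the log2 scale after stripping (edgeR adjusted p = 0.00015). It was lower with NGO than in stripped control skin, by -1.22 ± 0.30 (edgeR adjusted p = 0.0337, up to 0.109 over the alternatives), and higher with NGO than in unstripped skin, by 1.28 ± 0.30 (edgeR adjusted p = 0.0356, up to 0.216 over the alternatives).

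Col4a2 encodes the chain that joins 2 copies of the Col4a1 chain in the type IV molecule found in most basement membranes. It was at 18.9, 9.73 and 19.5 CPM in unstripped libraries, 183, 184 and 197 CPM in stripped control libraries and 71.9, 147 and 104 CPM with NGO. As with Col4a1, the 3 groups did not overlap. It rose by 3.55 ± 0.43 on the log2 scale after stripping (edgeR adjusted p = 0.00013) and stood 2.75 ± 0.41 above unstripped skin with NGO (edgeR adjusted p = 0.00277). Against stripped control skin the NGO value was -0.80 ± 0.38 (edgeR adjusted p = 0.248), which did not pass. The ratio of Col4a1 to Col4a2 counts was 3.48 to 6.79 in unstripped libraries, 1.90 to 2.26 in stripped control libraries and 1.19 to 2.58 with NGO, so the pair changed unequally. This ratio was chosen after the values were seen and was not tested.

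Col15a1 (chr4:47208161-47313167) encodes the chain of type XV collagen, found in the basement membrane zones of vessels, muscle and nerve. It was at 11.7, 4.42 and 7.07 CPM in unstripped libraries, 85.3, 73.4 and 88.4 CPM in stripped control libraries and 49.5, 63.2 and 40.3 CPM with NGO. Again the 3 groups were apart and NGO lay between the others. It rose by 3.41 ± 0.53 on the log2 scale after stripping (edgeR adjusted p = 0.000675) and was 2.72 ± 0.51 above unstripped skin with NGO (edgeR adjusted p = 0.00973). NGO against stripped control gave -0.69 ± 0.48 (edgeR adjusted p = 0.442).

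The summed level of 14 endothelial markers moved with these 3 genes, though not each marker did. It was 50.7 to 69.1 CPM in unstripped, 469 to 776 CPM in stripped control and 247 to 400.2 CPM in NGO libraries. After stripping, 6 of the 11 tested were called higher, where 5.97% of all tested genes were. With NGO against unstripped skin 2 were called higher, where 2.06% of all tested genes were. Between NGO and stripped control skin edgeR called none of the 11, where 5.05% of all tested genes were called. There 2 had an unadjusted p under 0.05, both lower with NGO. Tie1 was at 0 in the unstripped libraries, and no marker was at 0 throughout either stripped group. Summed Col4a1 and Col4a2 divided by the endothelial sum, again a measure chosen after the values were seen, gave 1.36, 1.13 and 1.72 in unstripped libraries, 0.769, 1.14 and 1.05 in stripped control libraries and 0.850, 0.865 and 0.926 with NGO. For Col15a1 the same ratio was 0.0661 to 0.169, 0.110 to 0.157 and 0.158 to 0.163. Neither ratio was higher in all stripped control libraries than in all unstripped ones. The ratio for Col4a1 and Col4a2 was lower in every NGO library than in every unstripped one. The sum of 11 pericyte and smooth muscle markers ran from 307 to 315 CPM in unstripped, 1259 to 1649 CPM in stripped control and 645 to 769 CPM in NGO libraries, with Cnn1 at 0 in the stripped control libraries. In the stripped control libraries, Des, which skeletal muscle also expresses, and Kcnj8 carried most of the sum. Without them, a repeat chosen after the values were seen, the sum was 151 to 186 CPM, 227 to 295 CPM and 303 to 408 CPM, highest with NGO. Adipocyte markers (13 genes) ran from 142 to 174 CPM in unstripped to 1555 to 2553 CPM in stripped control and 916 to 1061 CPM in NGO libraries, with Plin1 at 0 in unstripped and Lep and Cidec at 0 in stripped control libraries. The part of muscle, pericytes and adipocytes, whose cells also carry type IV collagen, was not tested.

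**Figure D4:**
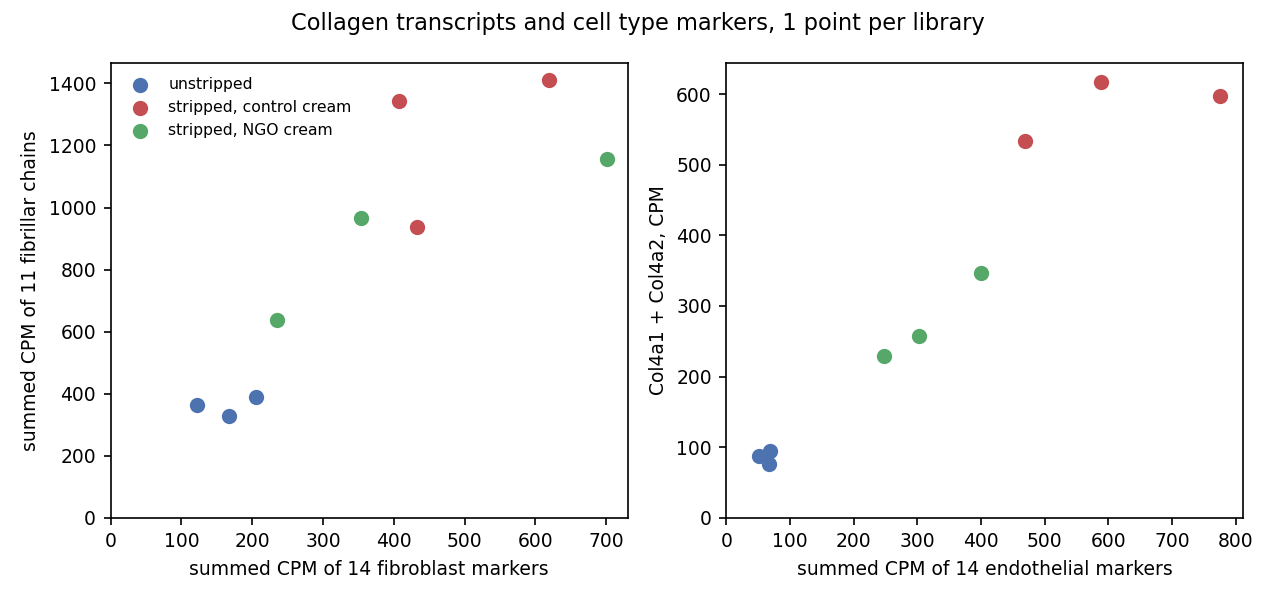
Summed fibrillar chains against 14 fibroblast markers (left) and Col4a1 plus Col4a2 against 14 endothelial markers (right), 1 point per library (CPM on both axes), coloured by group. Stripped control libraries lie highest in endothelial markers, 469 to 776 CPM, and in Col4a1 with Col4a2, and the unstripped libraries lie lowest in both.

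The other basement membrane chains did not pass the test in any of the 3 comparisons. Col7a1 (chr9:108953586-108984875), whose product forms the anchoring fibrils of the dermal-epidermal junction, was at 196, 110.2 and 126 CPM in unstripped libraries, 14, 63.4 and 92.5 CPM in stripped control libraries and 68.2, 22.7 and 92.3 CPM with NGO. Every unstripped library was above all stripped ones, and the stripped groups overlapped. The log2 fold change was -1.34 ± 0.62 for stripping (edgeR adjusted p = 0.179). Col4a6, which lies head to head with Col4a5 on the X chromosome and whose product is found under the epidermis, was at 20.04 to 53.3 CPM in unstripped libraries, 0 to 12.7 CPM in stripped control libraries and 1.21 to 15.7 CPM with NGO, also without overlap between unstripped and stripped skin. Col4a5 was at 8.94 to 9.14 CPM unstripped, 0 to 9.10 CPM stripped and 0.925 to 5.49 CPM with NGO.

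Col18a1, the source of endostatin, was at 51.2, 47.5 and 51.3 CPM in unstripped libraries, 191, 15.9 and 77.8 CPM in stripped control libraries and 154, 166 and 141 CPM with NGO. Stripped control replicate 2 lay below every other library and replicate 1 above every one. NGO libraries were all above the unstripped ones, by 1.62 ± 0.61 on the log2 scale (edgeR adjusted p = 0.275). That difference was called by limma-voom (adjusted p = 0.00467), by edgeR on the 2 groups alone (0.00666) and by edgeR without stripped control replicate 2 (0.0381), where the stripping comparison also gave a call, at 1.40 (adjusted p = 0.0369). Col4a3 and Col4a4, a pair of chain genes whose starts lie 71 bp apart, were at 1.72 to 14.4 CPM in unstripped, 5.52 to 51.2 CPM in stripped control and 0 to 20.8 CPM in NGO libraries. The class as a whole made up 33.6% ± 5.34 of collagen transcripts in unstripped libraries, 35.9% ± 7.83 in stripped control libraries and 31.8% ± 4.22 with NGO (SD, n = 3), with overlapping groups.

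Among FACIT chains, 5 of 9 were tested. Col16a1 (chr4:130047840-130099283), a FACIT chain made by fibroblasts and keratinocytes and found near the dermal-epidermal junction, was the only collagen chain gene called lower after stripping. It was at 140.3, 139 and 98.4 CPM in unstripped libraries, 5.17, 0.650 and 6.11 CPM in stripped control libraries and 38.0, 9.25 and 34.4 CPM with NGO. The 3 groups did not overlap, in the order opposite to that of Col4a1. The log2 fold change was -4.99 ± 0.78 for stripping (edgeR adjusted p = 0.000778), a 31.8-fold difference, and 2.78 ± 0.73 for NGO against stripped control (edgeR adjusted p = 0.044, up to 0.308 over the alternatives). NGO against unstripped skin gave -2.21 ± 0.67 (edgeR adjusted p = 0.14). Beside it, the sum of 12 basal keratinocyte markers was 24248 to 33900.0 CPM in unstripped, 2253 to 3598 CPM in stripped control and 14030.0 to 21732 CPM in NGO libraries. Of these markers 9 were called lower after stripping, where 7.64% of all tested genes were. Against stripped control skin, 8 were called higher with NGO, where 3.87% of all tested genes were. None of the markers was at 0 throughout a group. The part of the epidermal share in the Col16a1 result was not tested.

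The other tested FACIT chains were not called. Col12a1, found in dense connective tissue, was at 9.63 to 47.5 CPM unstripped, 12.2 to 46.0 CPM stripped and 20.5 to 49.0 CPM with NGO. Col19a1 was at 118 CPM in stripped control replicate 1, at 30.9 and 39.2 CPM in the other stripped control libraries, and at 28.4, 5.78 and 2.33 CPM with NGO. Its NGO values were all below those of stripped control skin, a log2 difference of -2.38 ± 0.87 (edgeR adjusted p = 0.133), and DESeq2 called it (adjusted p = 0.0299). Col14a1 and Col22a1 reached 16.8 and 11.3 CPM in NGO replicate 3 and were at 0 in NGO replicate 2. FACIT transcripts made up 18.2% ± 1.56 of collagen transcripts in unstripped libraries, 3.75% ± 1.97 in stripped control libraries and 4.70% ± 1.42 with NGO (SD, n = 3), and the unstripped range lay apart from both others. Col16a1 accounts for most of this. Without it in the class and in the total, a repeat chosen after the values were seen, the share was 5.46% to 7.98% in unstripped, 2.30% to 5.84% in stripped control and 2.78% to 3.87% in NGO libraries, and the median log2 fold change of the 5 tested chains for stripping, Col16a1 included, was 0.29.

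None of the 4 tested type VI chains was called in any comparison. With edgeR, 1 had an unadjusted p under 0.05 after stripping, none in NGO against stripped control and 1 in NGO against unstripped skin. DESeq2 called none, and limma-voom called 1, Col6a2, in the last of these (adjusted p = 0.0194). Col6a3, the large chain of type VI microfibrils, was at 38.9, 43 and 39.2 CPM in unstripped libraries, 145, 103 and 34.1 CPM in stripped control libraries and 91.5, 129 and 54.4 CPM with NGO. Stripped control replicate 3 lay below the unstripped libraries and the other two lay above them, so the groups overlapped. Its log2 fold change was 1.22 ± 0.51 (edgeR adjusted p = 0.141), and without stripped control replicate 3 it was called, at 1.60 (edgeR adjusted p = 0.0265). Col6a2 was at 0.884 to 6.88 CPM unstripped, 10.7 to 14.5 CPM stripped and 11.2 to 26.6 CPM with NGO, while Col6a1 was at 0 in stripped control replicate 1 and at 17.2 and 23.5 CPM in the others. Col6a4 was at 18.1, 7.47 and 0 CPM in the stripped control libraries.

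No short-network chain was called with edgeR, DESeq2 or limma-voom, and none had an unadjusted p under 0.05 with edgeR. Col8a1 and Col8a2 encode chains of type VIII collagen, which is made by vascular and corneal endothelium. Col8a1 was at 0.688, 10.9 and 9.43 CPM in unstripped libraries, 45.5, 24.7 and 4.50 CPM in stripped control libraries and 16.9, 15.7 and 3.66 CPM with NGO. Col8a2 was at 5.16, 20.9 and 19.7 CPM in unstripped libraries, 93.1, 33.5 and 25.1 CPM in stripped control libraries and 32.9, 19.9 and 2.66 CPM with NGO. Stripped control and unstripped libraries overlapped for Col8a1 and not for Col8a2. Of the 3 transmembrane chains, none was called in the reported edgeR analysis. Col25a1 was at 7.22, 1.77 and 6.19 CPM in unstripped libraries, 59.0, 41.6 and 19.6 CPM in stripped control libraries and 3.02, 8.79 and 18.8 CPM with NGO. All stripped control libraries lay above the rest, by 2.98 ± 0.98 on the log2 scale over unstripped skin (edgeR adjusted p = 0.0604), and DESeq2 (adjusted p = 0.00372) and limma-voom (adjusted p = 0.00727) called it. So did edgeR with RLE scaling (adjusted p = 0.0497), with the 2 groups alone (0.0499) and without stripped control replicate 3 (0.0481).

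Col23a1 was at 53.3, 66.0 and 34.5 CPM in unstripped libraries, 39.3, 0 and 8.68 CPM in stripped control libraries and 97.5, 57.1 and 67.4 CPM with NGO. Its NGO libraries were all above the stripped control ones, by a log2 difference of 2.24 ± 1.01 (edgeR adjusted p = 0.222). Without stripped control replicate 1 it was called in both comparisons with stripped control skin, at -3.48 against unstripped skin (edgeR adjusted p = 0.03) and 4.03 for NGO (edgeR adjusted p = 0.0331). Col13a1, a chain known from the neuromuscular junction, was at 26.9 CPM in stripped control replicate 1 and at 0 in replicate 3.

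The remaining 11 genes did not pass the low-count filter. Without that filter, Col2a1 was the only one of them called, as given above. Col10a1 and Col9a3 had 0 counts in all 9 libraries, where a floor of 3 counts over a group corresponds to 0.310 CPM in unstripped, 0.369 CPM in stripped control and 0.220 CPM in NGO skin, counting error only. Below the filter were also Col2a1, Col6a5, Col6a6, Col9a1, Col9a2, Col11a2, Col20a1, Col26a1 and Col28a1. Col6a5 reached 14.3 CPM in stripped control replicate 2 and Col6a6 9.10 CPM in the same library, and apart from Col2a1 no other gene below the filter passed 5.74 CPM in any library.

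Among the collagen chain genes, zeros beside high values were most frequent in the stripped control libraries. In that group, 8 of the 30 genes that reached 10 CPM in some library were at 0 in another, among them Col23a1, Col5a3, Col6a1 and Col4a6, against 1 of 24 in unstripped and 2 of 27 in NGO libraries. Of the 32 tested genes, 19 had their highest stripped control value in replicate 1, 7 in replicate 2 and 6 in replicate 3. Replicate 1 also had the fewest total counts, 2019739. Over all genes, 12433 to 13309 were detected in stripped control libraries, 14546 to 16183 in unstripped and 13863 to 14404 in NGO libraries. Zeros and highest replicates were not counted over all genes, so these patterns are not shown to be particular to collagens. The 7 calls of the stripping comparison held without each of the stripped control libraries in turn.

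Genes that act on collagen were taken from lists of their roles. Among 18 tested genes of procollagen modification and folding, which hydroxylate, fold and export the chains, none was called higher and 1 lower after stripping with edgeR, and none in the other comparisons. The unadjusted p was under 0.05 for 2, 2 and 1 of them in the 3 comparisons, and DESeq2 called 2, 2 and 0. The gene called was Ppib, a prolyl isomerase of the endoplasmic reticulum, at 134, 89.0 and 94.6 CPM in unstripped libraries, 48.6, 29.6 and 48.5 CPM in stripped control libraries and 132, 99.2 and 98.0 CPM with NGO. Its log2 fold change for stripping was -1.33 ± 0.38 (edgeR adjusted p = 0.0331), and for NGO against stripped control 1.38 ± 0.38 (edgeR adjusted p = 0.0539). After stripping, limma-voom called 2 genes of this list higher and none lower. The most counted genes of this list did not pass: P4hb, a subunit of prolyl 4-hydroxylase, was at 215 ± 23.0, 277 ± 134 and 287 ± 21.4 CPM and Mia3, which helps load procollagen for export, at 161 ± 14.4, 159.7 ± 63.8 and 141 ± 1.16 CPM in the unstripped, stripped control and NGO groups (SD, n = 3).

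Of 13 genes for propeptide cleavage and crosslinking, 1, Adamts14, a procollagen N-proteinase, fell after stripping and rose with NGO. It was at 20.6, 33.3 and 30.9 CPM in unstripped libraries, at 0 in all 3 stripped control libraries and at 7.85, 6.94 and 21.1 CPM with NGO. Measured against the floor of 3 counts over the group, it was at least 76.6-fold lower after stripping (edgeR adjusted p = 0.00236) and at least 32.4-fold higher with NGO (edgeR adjusted p = 0.0167), while limma-voom called no gene of this list between NGO and stripped control skin. The basal keratinocyte markers above ran in the same order. The lysyl oxidase relative Loxl1 was at 3.55 ± 4.49, 27.5 ± 11.1 and 23.3 ± 16.1 CPM and the proteinase enhancer Pcolce2 at 37.5 ± 11.8, 31.4 ± 18.1 and 27.0 ± 9.80 CPM in the 3 groups (SD, n = 3), neither of them called with edgeR. Other tools called more of this list: after stripping DESeq2 called 2 higher and limma-voom 3, and with NGO against unstripped skin they called 1 and 3. Both tools called Pcolce, a proteinase enhancer named here after its values were seen, in each of these comparisons. It was at 3.44, 2.36 and 0 CPM in unstripped libraries, 12.4, 35.7 and 11.9 CPM in stripped control libraries and 24.8, 10.4 and 45.1 CPM with NGO, and edgeR gave adjusted p = 0.0869 after stripping and 0.179 with NGO.

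Of 9 tested fibril-associated proteoglycans and glycoproteins, 2 rose after stripping, where 5.97% of all tested genes did. The same 2 were higher with NGO than in unstripped skin, where 2.06% of all tested genes were. They were Dcn, decorin, which binds collagen fibrils, with log2 fold changes of 2.59 ± 0.51 and 2.96 ± 0.51 (edgeR adjusted p = 0.00367 and 0.00582), and Sparc, a collagen-binding glycoprotein, with 1.81 ± 0.36 in both (edgeR adjusted p = 0.00388 and 0.0128). Dcn is also on the fibroblast list. After stripping, DESeq2 and limma-voom each called 3 higher and 1 lower. The latter was Tnxb, tenascin-X, named here after its values were seen, at 33.7, 26.2 and 28.0 CPM in unstripped libraries, 2.07, 2.92 and 0 CPM in stripped control libraries and 5.74, 4.63 and 25.1 CPM with NGO (edgeR adjusted p = 0.0514). Neither was called between NGO and stripped control skin, where edgeR called none of the 9, 2 had an unadjusted p under 0.05, DESeq2 called 1 and limma-voom none.

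Among 8 tested collagen receptors, Itgb1, the integrin β1 subunit, rose after stripping by 1.10 ± 0.32 on the log2 scale (edgeR adjusted p = 0.036). Ddr1, a receptor tyrosine kinase of epithelia that binds collagen, was at 317, 259 and 327 CPM in unstripped libraries, 17.1, 25.0 and 13.2 CPM in stripped control libraries and 180.0, 60.4 and 77.4 CPM with NGO. The 3 groups were apart, with NGO between the others as for Col16a1. Ddr1 fell by 4.03 ± 0.48 on the log2 scale after stripping (edgeR adjusted p = 0.000118) and rose by 2.52 ± 0.45 with NGO against stripped control (edgeR adjusted p = 0.00808), where limma-voom called none of the 8.

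Of 7 tested collagen-cleaving enzymes, none was called after stripping with edgeR, 1 had an unadjusted p under 0.05, and DESeq2 called 1 and limma-voom none. Mmp8, the neutrophil collagenase, was at 22.0, 36.3 and 31.5 CPM in unstripped libraries, 204, 67.6 and 32.1 CPM in stripped control libraries and 17.2, 7.63 and 7.32 CPM with NGO. It was lower with NGO than in stripped control skin, by -3.24 ± 0.70 on the log2 scale (edgeR adjusted p = 0.0211), and limma-voom called none of this list. Mmp8 is itself on the list of neutrophil markers, 9 of which were in the files, with Ngp and Clec4d at 0 in unstripped skin. Their sum, Mmp8 included, was 35.8 to 48.9 CPM in unstripped, 3686 to 10622 CPM in stripped control and 572 to 1747 CPM in NGO libraries. In the unstripped libraries Mmp8 made up most of that sum. With NGO the sum lay above that of unstripped skin, while Mmp8 lay below all unstripped libraries, by -1.49 ± 0.66 on the log2 scale (edgeR adjusted p = 0.388). Mmp9, a gelatinase, was at 52.9 ± 13.9, 74.6 ± 6.68 and 20.6 ± 23.8 CPM in the 3 groups (SD, n = 3) and was not called.

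Of 10 basement membrane partners of type IV, 1 rose and 1 fell after stripping. Hspg2, perlecan, was at 33.4, 24.8 and 15.9 CPM in unstripped libraries, 111, 69.5 and 109 CPM in stripped control libraries and 63.1, 84.0 and 94.2 CPM with NGO, and rose by 1.97 ± 0.44 on the log2 scale (edgeR adjusted p = 0.00833). Agrn, agrin, another heparan sulfate proteoglycan, was at 231, 167 and 195 CPM in unstripped libraries, 57.4, 42.9 and 6.11 CPM in stripped control libraries and 123, 167 and 106 CPM with NGO, and fell by 2.49 ± 0.59 on the log2 scale (edgeR adjusted p = 0.0129). No gene of this list was called between NGO and stripped control skin with edgeR, where 1 had an unadjusted p under 0.05 and DESeq2 and limma-voom each called 1.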

How the data were processed

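The authors deposited whole-number counts per gene symbol, 1 table per library. The submitters' processing notes name mm10, Bowtie2 and bedtools. For multiple matches, overlapping genes and strand, the handling was not given in the sources used here. Col4a1 and Col4a2, Col18a1 and Slc19a1, Col10a1 and Nt5dc1, and Col9a3 and Tcfl5 overlap on opposite strands, so reads there could be split or shared.

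Counts were analysed in R 4.3.3 with edgeR 4.0.16 (robust quasi-likelihood test, TMM, filterByExpr), with group as the factor in 1 fit to all 9 libraries. Group values are mean ± SD. DESeq2 1.42.0, limma-voom (limma 3.58.1), other scalings and filters, a replicate block, the 2 compared groups alone and leaving out each library were alternatives. A further one took library sizes without Rn45s and the muscle, adipocyte and hair genes. The code was tested on simulated data. No 2 libraries of a group were identical. The 44 repeat entries of 35 symbols, none of them a collagen, were kept apart.

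Members, classes and lists were chosen with earlier results of these data known. By a fixed rule, values were given for called members, the 4 highest by mean CPM in each class, and, per list, called genes (at most 4 per comparison) and the 2 highest. The other members were given after their values were seen, so that each is accounted for. Positions come from GENCODE M21, windows from RefSeq.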

Additional observations from a re-analysis of the deposited data

How the results depend on the processing

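In the comparison of stripped control with unstripped skin, 7 to 10 collagen chain genes were called over the 18 alternatives. The 7 calls of the reported analysis held in each. The 10 came from DESeq2. Both DESeq2 and limma-voom also called more of all tested genes in this comparison than the reported analysis did, so their counts are not comparable with its 7. For NGO against stripped control skin, where 2 were called, RLE scaling gave 1, DESeq2 5, limma-voom 1 and the 2 compared groups alone 0. Leaving out 1 library gave 0 to 3. Of all tested genes, DESeq2 likewise called more than the reported analysis, and RLE scaling, limma-voom and the 2 groups alone fewer. Col16a1 was not called there without any of the unstripped libraries, stripped control replicate 2, or NGO replicates 1 or 3, nor Col4a1 without unstripped replicates 2 or 3, stripped control replicate 3 or any NGO library. For NGO against unstripped skin, where 5 were called, limma-voom gave 8 and the replicate block 3, and leaving out 1 library gave 1 to 5. Here too limma-voom called more of all tested genes than the reported analysis, and the replicate block fewer. The cause of these changes was not tested, except that leaving out a library lowers the number of samples. No called fold change changed sign. With the replicate number as a block the 3 comparisons gave 7, 2 and 3 calls. Library sizes without Rn45s and the muscle, adipocyte and hair genes gave 7, 2 and 5. Same-numbered libraries did not deviate together (correlations of -0.0642 to 0.0977), so no pairing by number was seen. With 3 libraries per group, these correlations cannot exclude one. RLE scaling shifted the median log2 fold change of all genes by 0.127 for stripping and -0.121 for NGO against stripped control, limma-voom by -0.419, 0.169 and -0.166 in the 3 comparisons, and the block by -0.256, 0.125 and -0.103. Genes with a few counts per library limit what can be seen: SEs of the log2 fold changes reached 2.50.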
